A study of Mus musculus with 2 samples.

Results

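The amino acid transporter genes of the Slc1, Slc3, Slc6, Slc7, Slc36, Slc38 and Slc43 families were compared between mouse colon adenomas and normal colon. They were selected by symbol among the 22388 rows of type mRNA in a table of 35529 genes, which gave 63 genes. Of these 62 encode carriers or their partner chains. The other one, Slc7a6os, matched the symbols only because it lies beside Slc7a6 on the opposite strand, and it is not a transporter. The rule uses the symbols alone.

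RNA was measured in 2 libraries of C57BL/6 wild-type mice. The control pool was normal colon of animals that received no AOM or DSS, and the adenoma pool was adenoma tissue from the colon of animals after AOM/DSS treatment. Azoxymethane (AOM) is a carcinogen that acts on the colon, and dextran sodium sulfate (DSS) injures its lining. The RNA of each library came from 6 pooled individuals, so each group holds 1 library and the spread between animals was not measured. Ages, sexes, doses and times are not given in the sources used here. Levels are RPKM, reads normalised to gene length and library size, and stand on recovered totals of 29548883 reads (control) and 33174626 reads (adenoma). Folds are ratios of RPKM, and the 95% intervals beside them cover counting error only. A gene was counted as tested when either pool reached 1 RPKM, and as higher or lower when (RPKM + 1) differed at least 2-fold, a scale that understates the change of low genes.

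Amino acids cross cell membranes only through carriers. Absorptive epithelia take them up at the apical membrane, mostly with sodium or protons, and pass them on at the basolateral membrane through exchangers made of a heavy chain (Slc3) and a light chain (Slc7). Growing tumour cells are known to depend on the uptake of glutamine, leucine, arginine and cystine, and Slc1a5, Slc7a5, Slc6a14 and Slc7a11 are the carriers most often named for this in cancers. In lysosomes other carriers export amino acids and take part in the control of the kinase complex mTORC1.

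The transporter genes were lower in total in the adenoma pool. The RPKM of the 62 carrier and chain genes summed to 421 in normal colon and 218 in adenomas, 1.93-fold lower. Of the 63 genes 31 were tested, and of these 7 were lower and 3 higher. Among the 12910 tested mRNA genes 13.1% were lower and 10.4% higher, against 22.6% and 9.68% of the transporter genes. The median log2 difference was -0.38 over the transporter genes and -0.17 over all tested mRNA genes. The other 163 tested Slc genes had 43 lower (26.4%), 8 higher (4.91%) and a median of -0.46. The difference between these sets was not tested.

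The lower genes were Slc6a14, Slc36a1, Slc1a1, Slc6a4, Slc6a6, Slc6a8 and Slc43a3. The higher ones were Slc6a13, Slc38a4 and Slc6a12, and none of them exceeded 2.55 RPKM. The 5 tested Slc6 carriers of monoamines, GABA, betaine, taurine and creatine held 3 of the lower and 2 of the higher genes. Slc43a3 is known as a purine carrier, so the counts are not those of amino acid carriers alone. The adenoma value was below the control value in 21 of the 31 tested genes, against 58.1% of all tested mRNA genes.

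**Figure D1:**
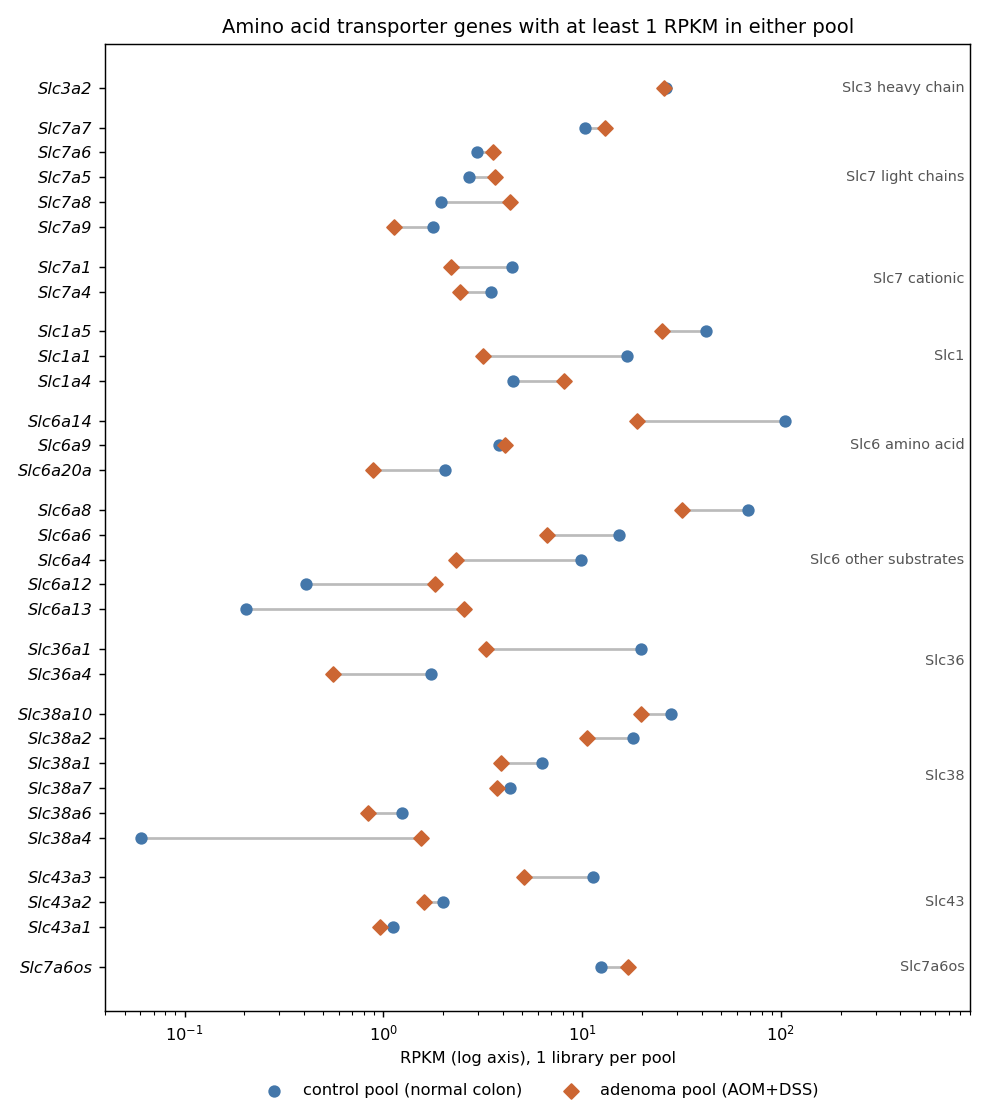
RPKM of the 31 tested genes in the control pool (circles) and the adenoma pool (diamonds) on a log axis, grouped by family and role, with 1 library per pool. Slc36a1 and Slc6a14 shift far to the left, from 19.9 to 3.28 and from 105 to 18.8 RPKM, while Slc3a2 lies at 26.3 and 25.9.

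Log2 differences fell with transcript length over all mRNA genes, and the tested transporter genes were longer than most, with a median of 3800 bases against 3152. The median log2 difference went from 0.79 in the shortest 10% of mRNA genes to -0.76 in the longest 10%. What gave rise to this trend, in the tissue or in the making of the libraries, was not tested. After this trend was subtracted the transporter genes had a median of -0.13, with 5 lower (16.1%, against 10.4% of all mRNA genes) and 3 higher (9.68% against 6.16%). Slc6a14, Slc36a1, Slc1a1, Slc6a4 and Slc43a3 were still lower, and Slc6a13, Slc38a4 and Slc7a8 higher. The adjusted median of all mRNA genes was -0.17, so that the transporter median was no longer below it.

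**Figure D2:**
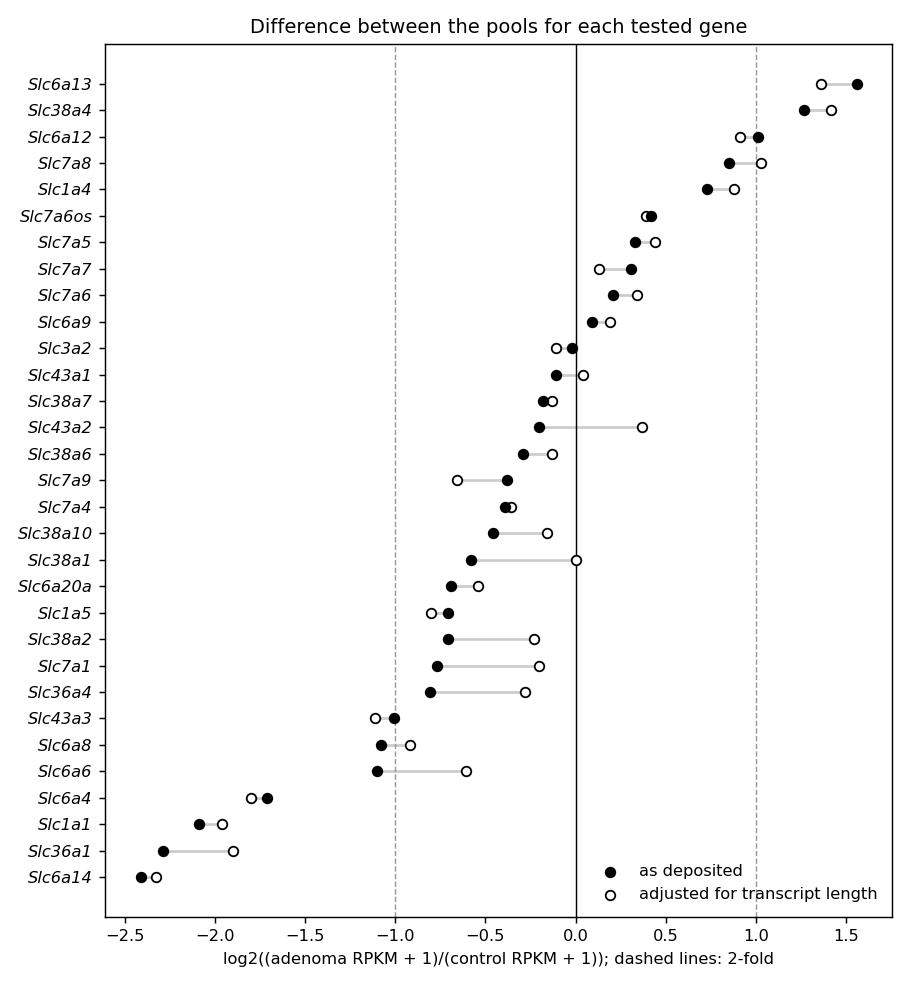
Log2 difference between the pools for each tested gene, as deposited (filled) and after subtraction of the trend over transcript length (open); dashed lines mark 2-fold. Slc6a14, Slc36a1, Slc1a1 and Slc6a4 lie below -1 on both scales, whereas Slc6a6 moved from -1.10 to -0.61 and Slc6a8 from -1.08 to -0.92.

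Tissue markers differed between the pools at the same time. The 7 markers of absorptive colonocytes were lower in 7 of 7 cases, with a summed level of 2392 RPKM in normal colon and 565 in adenomas. The 6 general epithelial markers summed to 8728 and 5645 RPKM, with 2 lower. Enteroendocrine markers summed to 120 and 27.1 RPKM, with 3 of 3 tested lower, and macrophage markers to 323 and 527, with 1 of 7 higher. The macrophage markers did not move together, with 4 above and 3 below the control value. Their median log2 value was 0.44, and -0.24 after length adjustment. Goblet cell markers summed to 9234 and 2047 RPKM, with 5 of 7 lower. Among the types with higher sums, neutrophil markers were at 2.35 and 306 RPKM (3 of 3 tested higher). Most of that sum came from S100a8 (0.777 and 120 RPKM) and S100a9 (0.693 and 175). The 2 untested neutrophil markers stayed under 1 RPKM, Csf3r at 0.394 and 0.950 and Cxcr2 at 0.0389 and 0.0307. Mast cell markers were at 3.80 and 91.7 RPKM (4 of 4 tested higher) and Paneth cell markers at 37.9 and 968 (4 of 4). Markers of interstitial cells of Cajal summed to 54.5 and 19.1 RPKM, with 2 of 2 tested lower, and smooth muscle markers to 2127 and 1769. In bulk tissue fewer cells of a type and less RNA per cell cannot be told apart, and the part of these markers in the differences below was not tested.

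Of 9 genes known for the apical membrane of gut epithelium, a set put together after the values were seen and so given only as a description, 6 were tested. Of these 3 were lower, beside 13.1% of all tested mRNA genes, and the other 3 were within 2-fold on the (RPKM + 1) scale. The log2 values were -2.41 for Slc6a14, -2.29 for Slc36a1, -2.09 for Slc1a1, -0.71 for Slc1a5, -0.69 for Slc6a20a and -0.38 for Slc7a9. The summed RPKM of the 9 genes was 188 in normal colon and 53.2 in adenomas, 3.53-fold lower.

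Slc6a14, a concentrating carrier for nearly all neutral and cationic amino acids, was the most abundant transporter gene of normal colon. It stood at 105 RPKM in normal colon and 18.8 in adenomas, 5.56-fold lower (5.30 to 5.82). It made up 24.8% of the summed RPKM of the 62 genes in normal colon and 8.64% in the adenomas, where it came after Slc6a8, Slc3a2, Slc1a5 and Slc38a10. Without it the sum of the others was 317 against 199 RPKM, 1.59-fold lower. Slc1a1, the epithelial glutamate and aspartate carrier, stood at 16.8 and 3.18 RPKM, 5.29-fold lower (4.74 to 5.90). Slc36a1, a proton-coupled carrier of glycine, alanine and proline found on brush borders and lysosomes, stood at 19.9 and 3.28 RPKM, 6.07-fold lower (5.55 to 6.64), the greatest fold among the lower genes. Its relative Slc36a4 was at 1.73 and 0.560 RPKM. The remaining 3 tested apical genes differed less between the pools. Slc1a5, the sodium-dependent exchanger of glutamine, stood at 42.0 and 25.3 RPKM, 1.66-fold lower (1.57 to 1.75). Its log2 value of -0.71 missed the threshold and became -1.09 when both pools were rescaled to equal RPKM sums. Slc6a20a, a carrier of proline and other imino acids, was at 2.05 and 0.891 RPKM, 2.31-fold lower (1.84 to 2.90). Its near copy Slc6a20b, which begins 2.21 kb away, was at 0.150 and 0.206, and reads can be divided between such copies with uncertainty. The cystine and cationic carrier Slc7a9 was at 1.77 and 1.13 RPKM, and its partner chain Slc3a1 at 0.367 and 0.418. Slc6a19, the main neutral carrier of the small intestine, was at 0.153 and 0.136 RPKM.

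**Figure D3:**
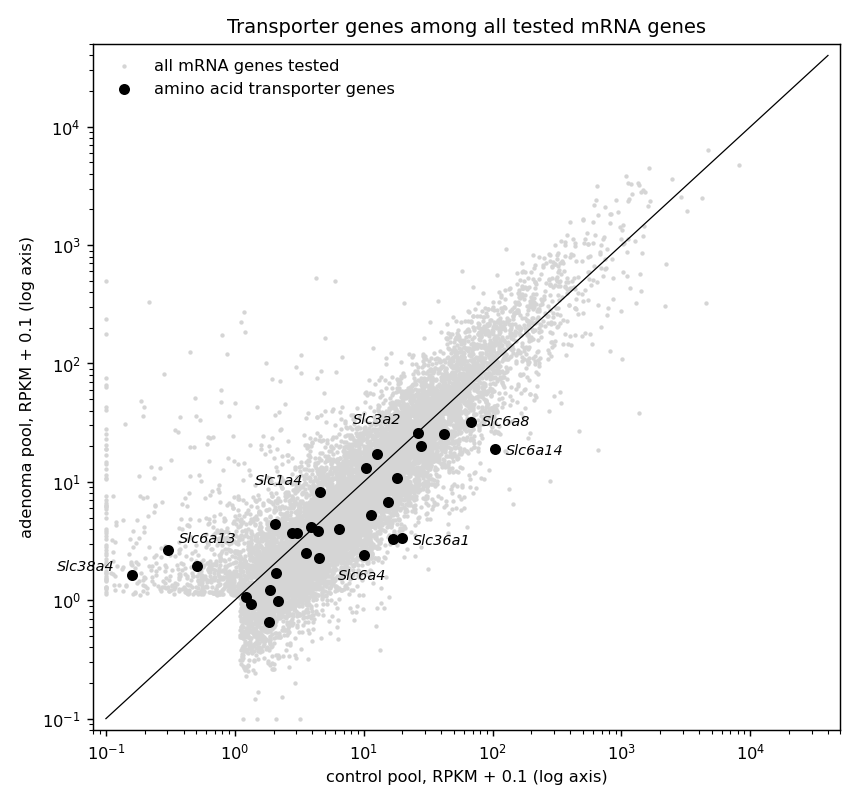
RPKM + 0.1 in the control pool (horizontal) and the adenoma pool (vertical) on log axes for the transporter genes (black) among all tested mRNA genes (grey); the line marks equal values. Slc6a14, at 105 and 18.8 RPKM, lies furthest to the lower right of the transporter genes, and Slc38a4 and Slc6a13 lie above the line at low control values.

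The serotonin, creatine and taurine carriers of the Slc6 family were lower as well. Slc6a4, the serotonin transporter, which in the gut clears serotonin into epithelial cells, stood at 9.90 and 2.33 RPKM, 4.26-fold lower (3.66 to 4.96). Slc6a8, the creatine transporter, stood at 68.2 and 31.8 RPKM, 2.15-fold lower (2.07 to 2.23), and became the most abundant transporter gene of the adenoma pool. Among the genes of creatine synthesis and use, Gatm was at 9.58 and 3.54 RPKM, Gamt at 3.62 and 3.38, and the creatine kinase Ckb at 56.1 and 63.2. Slc6a6, the taurine transporter, stood at 15.4 and 6.66 RPKM, 2.31-fold lower (2.17 to 2.47). The taurine synthesis enzymes Csad and Cdo1 were at 20.9 and 15.3 RPKM, and at 30.5 and 50.5. After length adjustment Slc6a8 (-0.92) and Slc6a6 (-0.61) no longer passed 2-fold.

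The sequences before the starts of the 4 tested genes that were more than 4-fold lower by RPKM are shown to let their promoters be compared. They are 250-base windows of RefSeq (GRCm38.p6) on the strand of the gene: chrX:21714650-21714899 for Slc6a14, chr19:28834885-28835134 for Slc1a1 and chr11:76998347-76998596 for Slc6a4, each ending at the base before the start, and chr11:55204100-55204349 for Slc36a1, which runs to 10 bases after it. Capitals mark a TCACGTGA core, the palindrome at the centre of sites for TFEB and related lysosomal regulators.
Slc6a14: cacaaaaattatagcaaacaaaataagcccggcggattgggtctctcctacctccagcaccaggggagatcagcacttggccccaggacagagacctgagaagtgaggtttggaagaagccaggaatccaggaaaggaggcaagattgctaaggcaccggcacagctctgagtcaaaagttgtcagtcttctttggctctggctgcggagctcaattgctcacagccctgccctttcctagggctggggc
Slc36a1: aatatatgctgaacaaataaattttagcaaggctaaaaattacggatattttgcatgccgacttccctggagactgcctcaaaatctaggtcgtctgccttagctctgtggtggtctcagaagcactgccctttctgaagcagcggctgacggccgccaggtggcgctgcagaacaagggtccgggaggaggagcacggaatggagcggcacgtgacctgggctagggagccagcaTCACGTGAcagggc
Slc1a1: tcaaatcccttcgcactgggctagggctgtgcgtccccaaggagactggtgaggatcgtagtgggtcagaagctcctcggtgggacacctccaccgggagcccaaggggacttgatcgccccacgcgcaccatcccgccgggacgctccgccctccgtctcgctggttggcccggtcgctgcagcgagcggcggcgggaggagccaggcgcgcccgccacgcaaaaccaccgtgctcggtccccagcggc
Slc6a4: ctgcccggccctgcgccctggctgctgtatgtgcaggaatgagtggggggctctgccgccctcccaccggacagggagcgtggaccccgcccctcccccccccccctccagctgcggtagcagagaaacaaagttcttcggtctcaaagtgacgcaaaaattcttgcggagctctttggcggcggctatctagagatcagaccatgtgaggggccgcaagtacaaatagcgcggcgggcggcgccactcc
The windows differed in composition. Slc1a1 and Slc6a4 had 70.4% and 64.8% G and C with 27 and 18 CpG pairs, while Slc6a14 and Slc36a1 had 54.0% and 54.4% with 4 and 12. The median of all 32851 windows was 52.4%, with 6 CpG pairs. The TCACGTGA core, sought after the sequence had been seen, was in 1 of the 45 transporter genes with a window, Slc36a1. These 45 include untested genes. The core was in 2.28% of the 8898 tested mRNA genes with a window. Tfeb itself was at 8.98 and 5.04 RPKM.

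As deposited, the heavy chain Slc3a2 and most of its light chains had values close to or above those of normal colon. Slc3a2, the heavy chain that carries most Slc7 light chains to the cell surface, stood at 26.3 and 25.9 RPKM, a ratio of 1.02 (0.958 to 1.08). Its log2 value of -0.02 became -0.40 with both pools rescaled to equal sums. Its light chains Slc7a5, Slc7a6, Slc7a7, Slc7a8, Slc7a10 and Slc7a11 summed to 18.5 RPKM in normal colon and 25.5 in adenomas. Slc7a7, which exchanges cationic for neutral amino acids and is also made by macrophages, was the most abundant at 10.3 and 13.0 RPKM, 1.26-fold higher (1.14 to 1.39). Slc7a8, an exchanger of neutral amino acids, stood at 1.96 and 4.34 RPKM, 2.21-fold higher (1.90 to 2.58), with a log2 value of 0.85 and 1.03 after length adjustment. Slc7a5, the leucine carrier LAT1, was at 2.69 and 3.63 RPKM, 1.35-fold higher (1.16 to 1.58), and Slc7a6 at 2.96 and 3.57. None of these passed 2-fold on the (RPKM + 1) scale as deposited. With a pseudocount of 0.1 RPKM Slc7a8 was at 1.11. The 5 tested light chains, which include Slc7a9, the partner of Slc3a1, had a median log2 value of 0.31. This median turned to -0.06 with both pools rescaled to equal sums, where Slc7a6 and Slc7a7 changed sign. Slc7a6os, which shares its locus with Slc7a6 (2.01 kb apart, strand of counting not given in the sources used here), was at 12.5 and 17.1 RPKM, 1.37-fold higher (1.27 to 1.48).

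Slc7a11, the cystine and glutamate exchanger xCT, stayed under 1 RPKM in both pools. It stood at 0.429 RPKM in normal colon and 0.955 in adenomas, a ratio of 2.23 (1.79 to 2.78), from about 117 and 292 reads. Glutathione genes that depend on cystine were not alike: Gclc was at 22.1 and 9.48 RPKM, 2.33-fold lower, and the partner subunit Gclm at 29.8 and 24. The lysosomal cystine exporter Ctns was at 9.11 and 2.49 RPKM.

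Promoters of 3 transporter genes held the core of the amino acid response element, the site through which ATF4 raises transcription when amino acids are short. The core was sought as TGATGNAA on both strands in windows from 250 bases before to 50 after the start. The windows around it are shown with those of the known ATF4 targets Pycr1 and Asns, as RefSeq (GRCm38.p6) gives them on the strand of the gene, with the core in capitals. They lie at chr3:50443637-50443695 (Slc7a11), chr11:20332694-20332733 (Slc1a4), chr14:54418062-54418101 and chr14:54417922-54417952 (Slc7a7, upstream of and at one of its starts), chr11:120643828-120643867 (Pycr1) and chr6:7693209-7693248 (Asns).
Slc7a11: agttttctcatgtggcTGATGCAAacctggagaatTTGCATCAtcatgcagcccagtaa
Slc1a4: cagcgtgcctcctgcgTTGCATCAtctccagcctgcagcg
Slc7a7, upstream site: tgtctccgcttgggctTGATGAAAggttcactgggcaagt
Slc7a7, site at the start: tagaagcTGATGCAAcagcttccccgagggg
Pycr1: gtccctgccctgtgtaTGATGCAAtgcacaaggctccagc
Asns: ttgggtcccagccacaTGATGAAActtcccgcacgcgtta
Slc7a11 held a pair of cores on opposite strands, TTGCATCA being the core read from the other strand. The 3 genes were 6.67% of the 45 transporter genes with a window, tested or not. Of the 8898 tested mRNA genes with a window 2.66% held the core. The first set includes untested genes such as Slc7a11 and the second does not, so these shares cannot be compared directly. The core was in 3.97% of all 32851 windows. All 3 genes had a higher value in the adenoma pool, although Slc7a7 turned to -0.06 at equal sums. Of the 12910 tested mRNA genes 5413 had a log2 value above 0. Whether genes with the core differ in direction from those without it was not tested. Slc1a4 and Slc7a7 were within 2-fold, and Slc7a11 was not tested. A match of letters does not show that the site is used, and 18 of the 63 genes, Slc1a5, Slc7a5 and Slc6a8 among them, had no window in the table.

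Slc1a4, a carrier of serine, alanine and cysteine, was the tested member of the Slc1 family whose value was above that of normal colon. It stood at 4.49 and 8.08 RPKM, 1.80-fold higher (1.62 to 2.0), and at 0.73 on the log2 scale it missed the threshold. Enzymes that make serine were also at higher values, with Phgdh at 4.58 and 15.1 RPKM, Psat1 at 4.73 and 11.0 and Psph at 6.63 and 11.4. The remaining Slc1 genes, Slc1a2, Slc1a3, Slc1a6 and Slc1a7, which are glutamate carriers of brain and retina, did not exceed 0.298 RPKM. Slc6a9, a glycine transporter, was at 3.80 and 4.09 RPKM.

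In the group of cationic amino acid transporters, drawn up by family, Slc7a1 and Slc7a4 had values below those of normal colon. Slc7a1 was at 4.43 and 2.18 RPKM, 2.04-fold lower (1.83 to 2.27), and Slc7a4, which resembles it in sequence, at 3.48 and 2.42. Neither passed 2-fold on the log2 scale. Slc7a1 was at -0.77, at -0.20 after length adjustment and at -1.03 with both pools rescaled to equal sums. Slc7a2, an arginine carrier of macrophages and liver, was at 0.162 and 0.223 RPKM. Enzymes that consume arginine were not alike. Arg1 was at 0.275 and 35.4 RPKM, Arg2 at 0.836 and 2.53, and the inducible nitric oxide synthase Nos2 at 1.53 and 3.37. Gatm, of creatine synthesis, also uses arginine and went the other way, at 9.58 and 3.54 RPKM.

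The sodium-coupled neutral carriers of the Slc38 family were mostly within 2-fold. Slc38a10, the most abundant of them, stood at 27.9 and 19.9 RPKM, 1.40-fold lower (1.33 to 1.47). Slc38a2, a glutamine and alanine carrier induced by amino acid shortage, stood at 18 and 10.6 RPKM, 1.69-fold lower (1.60 to 1.79), with a log2 value of -0.71 that became -1.07 at equal sums. Its neighbour Slc38a1, 44.5 kb away, was at 6.29 and 3.89 RPKM. Their ratio was close in both pools, 2.86 and 2.73. Slc38a7, a lysosomal glutamine exporter, was at 4.34 and 3.72 RPKM, Slc38a6 at 1.24 and 0.835, and Slc38a9, the lysosomal arginine sensor of mTORC1, at 0.344 and 0.348. Glutamine synthetase, Glul, was at 122 and 77.1 RPKM.

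Slc38a4 was the tested gene of this family with a higher value in adenomas. This imprinted gene encodes a neutral and cationic amino acid carrier of liver and placenta, and it lies 295 kb from Slc38a2 on chromosome 15. It stood at 0.0602 RPKM in normal colon and 1.55 in adenomas, 25.7-fold higher (12.2 to 64.7), from about 7 and 202 reads. Its log2 value was 1.27, and 0.37 with a pseudocount of 5 RPKM. The 4 liver markers summed to 35.3 and 37.5 RPKM, with Alb at 1.23 and 6.11, Ttr at 34 and 31.3, Apoa1 at 0 and 0.0306, and Serpina1a at 0.10 and 0.0733. Their part in the result was not tested.

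A pair of neighbouring genes on chromosome 6, Slc6a13 and Slc6a12, was higher. Both encode carriers of GABA, and Slc6a12 also carries the osmolyte betaine. In the GENCODE M21 annotation of GRCm38 Slc6a13 spans 121300227 to 121337733 and Slc6a12 spans 121343076 to 121365775, both on the plus strand and 5.34 kb apart. Slc6a13 stood at 0.205 and 2.55 RPKM, 12.5-fold higher (6.99 to 22.4), and Slc6a12 at 0.409 and 1.83, 4.48-fold higher (3.05 to 6.77). Slc6a12 passed the threshold narrowly, at 1.01, and fell short of it after length adjustment (0.91), at equal sums (0.76) and with a pseudocount of 5 RPKM (0.34). With that pseudocount Slc6a13 was at 0.54. The enzyme that degrades GABA, Abat, was at 81.4 and 10.7 RPKM, 7.6-fold lower. Slc6a11, another GABA carrier on chromosome 6, was at 0.233 and 0.0741 RPKM.

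Slc43a3, which is known as a purine carrier in spite of its family, stood at 11.3 and 5.12 RPKM, 2.20-fold lower (1.96 to 2.48), at the edge of the threshold (-1.01). It was above -1 when the pools were scaled by the median ratio, the upper quartile or a trimmed mean. Slc43a1, a branched-chain amino acid carrier 73.0 kb away, was at 1.12 and 0.962 RPKM, and the third member, Slc43a2, at 2.0 and 1.61. Slc36a2 and Slc36a3 lie in 1 cluster with Slc36a1 on chromosome 11 and were at 0.299 and 0.446 RPKM and at 0.0193 and 0.0343, far below it in level.

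The 32 genes under 1 RPKM in both pools include carriers that are known for neurons, kidney and retina. Of them 6 were listed at 0 in both pools, Slc7a12, Slc6a18, Slc6a5, Slc6a3, Slc38a5 and Slc38a8, where 3 reads would give between 0.0128 and 0.0583 RPKM. In 13 the control value was higher and in 13 the adenoma value. Of the genes with a lower value in adenomas and at least 1 read in both pools, the greatest ratio belonged to Slc6a7, the proline transporter of glutamatergic nerve endings, at 0.769 and 0.0180 RPKM, 42.7-fold lower (11.6 to 363), from about 77 and 2 reads. Slc6a17, a carrier of synaptic vesicles, was at 0.810 and 0.177 RPKM, and Slc7a14, a lysosomal carrier of nervous tissue, at 0.188 and 0.0521. The 6 enteric neuron markers summed to 16.9 and 12.5 RPKM, with Snap25 at 3.10 and 0.645, Elavl4 at 0.265 and 0.0442 and Uchl1 at 7.46 and 6.96. Their part in these differences was not tested. Slc38a11 was at 0.695 and 0.225 RPKM. Further genes of this group were Slc6a15, Slc6a16, Slc6a2, Slc7a3, Slc7a10, Slc7a13, Slc7a15 and Slc38a3, with levels up to 0.178 RPKM.

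Partner proteins and carriers outside these families included more lower than higher genes. Of 25 genes 16 were tested, with 4 lower (25%, against 13.1% of all mRNA genes), 1 higher (6.25% against 10.4%) and a median log2 value of -0.59. The peptide carrier Slc15a1 was at 9.10 and 1.0 RPKM, 9.07-fold lower, and the membrane dipeptidase Dpep1 at 57.6 and 9.38, 6.14-fold lower. Slc16a10, a basolateral carrier of aromatic amino acids, was the higher one, at 0.916 and 3.36 RPKM. Tmem27, a partner of Slc6a19, was at 0 and 0.0478 RPKM.

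Genes that sense amino acids stood near the background in number as deposited. Of 36 tested genes of the mTORC1 pathway 5 were lower (13.9%, against 13.1% of all mRNA genes) and 3 higher (8.33% against 10.4%). After length adjustment none was past 2-fold in either direction, against 10.4% lower and 6.16% higher over all mRNA genes. The lower ones were Deptor at 13.1 and 3.76 RPKM, Tsc1, Fnip2, Fnip1 and Rptor. The higher ones were Hbxip (Lamtor5) at 27.6 and 75.4 RPKM, 0910001L09Rik (Lamtor4) and the translation inhibitor Eif4ebp1. Of 30 tested ATF4 and amino acid response genes 4 were higher (13.3%) and 2 lower (6.67%), and after length adjustment 3 were higher and 4 lower. Atf4 was at 57.6 and 53.6 RPKM and Asns at 12.2 and 16.6. Before adjustment the higher ones were Pycr1, Nupr1, Phgdh and Psat1, and the lower ones Vegfa and Cth.

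Enzymes of the carried amino acids stood near the background in number. Of 42 tested enzymes 6 were lower (14.3%, against 13.1% of all mRNA genes) and 3 higher (7.14% against 10.4%), with a median of -0.05, or -0.40 at equal sums. The higher ones were Arg1 and a pair of proline enzymes, Pycr1, which makes proline, at 1.07 and 14.4 RPKM (13.5-fold), and Prodh, which degrades it, at 3.05 and 13.3 (4.34-fold). The lower enzymes were Abat, the alanine transaminase Gpt at 19.0 and 3.42 RPKM, Cth, Gatm, Gclc and Dbt. At equal sums, where 22.9% of all mRNA genes were lower and 5.58% higher, the partner list had 7 lower and 0 higher genes and the mTORC1 list 9 and 1. The ATF4 list then had 4 lower and 3 higher genes and the enzymes 11 and 3.

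**Figure D4:**
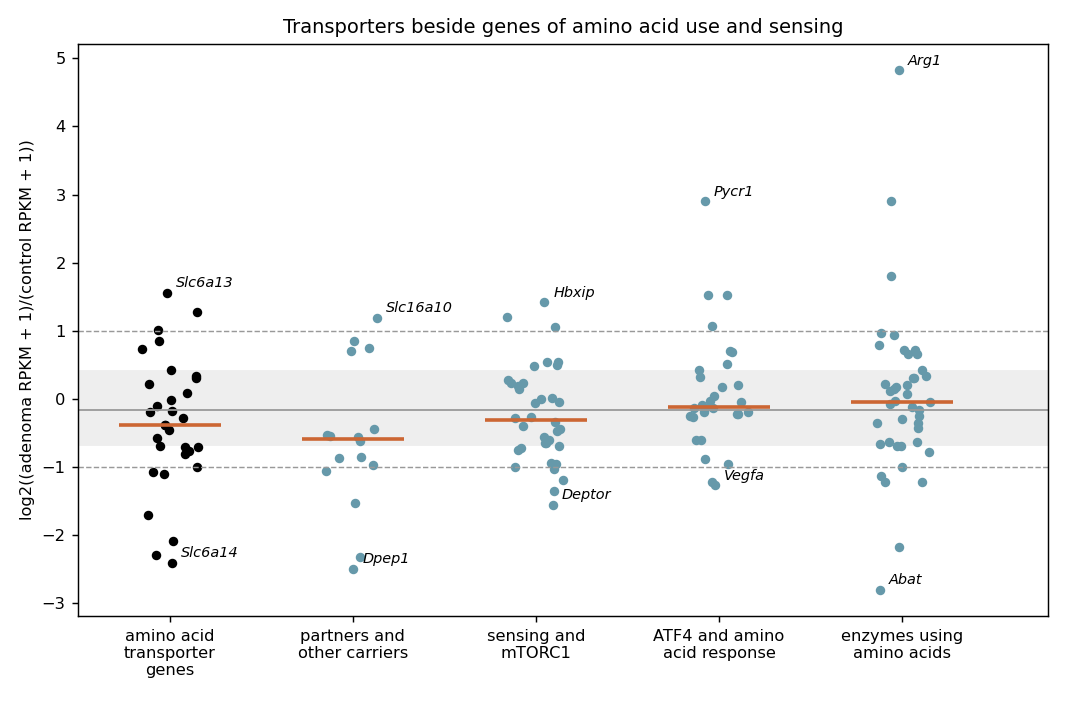
Log2 difference between the pools for tested transporter genes and for 4 lists of genes that partner them, sense amino acids or use them; orange bars are medians, the grey line and band are the median (-0.17) and quartiles (-0.67 to 0.41) of all tested mRNA genes. The transporter genes reach from -2.41 to 1.56, and Arg1 stands highest of the enzymes at 4.83.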

How the data were processed

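The series holds 2 RNA-seq libraries, each from the pooled RNA of 6 individuals, per the labels. The authors deposited 1 table of RPKM per gene, with 1 column for each pool, per the file headers. The submitters' processing notes name the build GRCh37, a human assembly, although the symbols are those of mouse. Aligner, counting method and annotation are not given in the sources used here, and the labels name different sequencing platforms. Because each group holds 1 library, a platform difference between the pools, if any, cannot be told apart from the tissue.

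Library totals were recovered from short non-coding genes whose length RefSeq gives, since the product of RPKM and length is then a multiple of the value of 1 read. With these totals 129 of 182 such genes (control, 70.9%) and 144 of 200 (adenoma, 72.0%) lay within 0.01 of a whole read. Approximate reads per gene took its longest transcript in GENCODE M21, so the exact (Clopper-Pearson) binomial 95% intervals of folds are approximate and hold counting error only. Log2 differences were taken of adenoma over control after adding 1 RPKM to both, where either value reached 1 RPKM. The trend over transcript length was the running median over 20 bins of mRNA genes. No p-value can be given from single libraries. Every tested transporter gene was named, with intervals for those past 2-fold and the 10 most abundant. For each list the rule was to name the 2 members of greatest difference, the most abundant and the greatest in the opposite direction. The most abundant genes of the mTORC1 and ATF4 lists are not reported here. Further list genes and intervals were added after their values were seen, for the substrate they share with a carrier or to name those counted. Members and lists were chosen with earlier results of these data known. The calculations, in Python 3.11.15 with numpy 2.4.6, pandas 2.3.3 and scipy 1.17.1, were tested on simulated data. Other pseudocounts, filters, scalings and thresholds were tried. A few genes of the sets are counted but not reported here by name.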

Additional observations from a re-analysis of the deposited data

How the results depend on the processing

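With 1 library per group, no replicate could be left out. No paired analysis was possible because each group holds 1 library. As deposited, 7 transporter genes were lower, 3 were higher and the median was -0.38. A pseudocount of 5 RPKM, which damps low genes, gave 4, 0 and -0.14. All tested mRNA genes then had 4.83% lower, 5.97% higher and a median of -0.10. A pseudocount of 0.1 RPKM gave a median of -0.51, against -0.20 over all tested mRNA genes. A filter at 5 RPKM left 15 genes, with 7 lower, 0 higher and a median of -0.71, against 15.6% lower and 12.6% higher over all mRNA genes. Without a filter the median of the 63 genes was -0.02. Rescaling to equal sums shifted log2 values by up to -0.40 and gave 10 lower, 2 higher and a median of -0.58. All mRNA genes then had 22.9% lower, 5.58% higher and a median of -0.48. Scaling by the median ratio, the trimmed mean or the upper quartile gave medians of -0.37, -0.37 and -0.35. Length adjustment gave -0.13, and leaving out Slc7a6os, an alternative added after the data were seen, gave -0.39. At 1.5-fold 12 of the 31 tested genes were lower and 5 higher, beside 29.2% and 19.5% of all tested mRNA genes. At 4-fold 3 were lower and 0 higher, beside 1.29% and 1.82%. Slc6a14, Slc36a1, Slc1a1 and Slc6a4 stayed at least 2-fold lower under all 9 pseudocounts, filters, scalings and adjustments that kept them. Sign changes met Slc3a2, Slc43a1, Slc43a2, Slc6a9, Slc7a6 and Slc7a7, all below 2-fold as deposited.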
